A study of Mus musculus with 64 samples.

Results

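The positions described here are the exact genome positions at which several samples of a transposon mutagenesis screen listed an insertion. They were chosen by 1 measured value, the number of samples that list a position: within each transposon system, a position on an autosome other than chromosome 14 was kept if at least 3 samples listed it. This left 514 of 295412 positions, 447 of 201266 for PiggyBac (PB) and 67 of 94146 for Sleeping Beauty (SB), and they are called shared positions below. The number of samples at a position is therefore a description, without a test.

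Samples came from 64 mice, 1 sample per mouse. Tumours were diffuse large B cell lymphomas sampled from lymph nodes, spleen, thymus, small intestine or masses, and tails served as control tissue. PB samples were 30 tumours and 12 tails, and SB samples 11 of each. PB mice carried a PB transposase knock-in at Rosa26 (Rosa26PB) and an ITP transposon line, and SB mice came from Rosa26 SB/+; Blm m3/m3 animals crossed with the line ITP1-C or the line ITP2-M, both also on Blm m3/m3. The labels give the genotypes only as IMPB and IMSB, and not the Blm alleles of PB mice, and neither the ITP line nor the age of a single mouse. The transposases were constitutive and all mice had a mixed C57BL/6 × 129Sv × FVB background. In tumour tissue, cells other than lymphoma cells also contribute insertions, and more cells with an insertion cannot be told apart from more reads per cell.

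A transposase cuts a transposon out of the genome and pastes it elsewhere. PB inserts at the letters TTAA and prefers open chromatin near gene starts, whereas SB inserts at TA and is guided more by the letters around that site. A transposon with splice acceptors and polyadenylation signals can disrupt a gene, and one with a promoter can activate it, so that cells with an advantageous insertion expand and give many reads at 1 position. Screens of this kind look for genes hit again and again, usually at different positions within the gene. The same base in several animals is a rarer event, and it can arise from the transposon's own preference, from repeated sequence, or from reads that move between libraries. Which of these applied to a given position was not tested.

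The reference letters around 5 PB and 6 SB shared positions, among those found in most samples of their system, are shown because the results turn on such positions. Each line gives the gene that holds the position, or the closest gene, the window on the plus strand of GRCm38 (mm10) and the letters, with the TTAA or TA in capitals.
PB, Rasa2, intron, chr9:96548297-96548326: atggcatgtacttTTAAaaagatacatctt
PB, Asxl2, intron, chr12:3465357-3465386: tttaacattgactTTAAgacacctgtcctc
PB, Tnfrsf14, intron, chr4:154927717-154927746: cacctcctgccctTTAAagagagccatagt
PB, Gm30855, exon of a non-coding gene, chr12:27345246-27345275: tctaacttttcttTTAAaaagaaagaagaa
PB, closest gene Gm5960, intergenic, chr15:75086991-75087020: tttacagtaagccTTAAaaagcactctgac
SB, En2, coding exon, chr5:28170222-28170249: tcagaccaacaggTAcctgacagagcag
SB, closest gene Gm33780, intergenic, chr2:98666917-98666944: ggaaaatgagaaaTAcacactttaggac
SB, En2, intron, chr5:28169857-28169884: gtgataggcctttTAgctacatctgcca
SB, En2, intron, chr5:28169861-28169888: taggccttttagcTAcatctgccaatcc
SB, Chl1, intron, chr6:103649255-103649282: taactcattgataTAcactgttctacaa
SB, closest gene Gm33780, intergenic, chr2:98667189-98667216: ttaggacgtgaaaTAtggcgaggaaaac

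A sample with reads at a position, however many, is called a listing of that position. The files held 301451 of them on the chromosomes kept, and no line had fewer than 2 reads. Reads on the kept insertions ranged from 60907 to 5827246 per PB tumour (median 138856), from 72108 to 194744 per PB tail (median 123715), from 56877 to 163441 per SB tumour (median 107031) and from 55699 to 369482 per SB tail (median 104160). The PB tumour with most reads, called PB tumour 3 after its number within the group, stands far above the others. Sample names were written in 2 forms, joined or separated, and such a form can mark a batch. The joined form held 22 tumours and 5 tails of PB and 11 tumours and 7 tails of SB, and the separated form the rest.

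Sharing fell steeply with the number of samples. Of the PB positions, 196307 were listed by 1 sample, 4512 by 2, 376 by 3 and 71 by at least 4. Of the SB positions, 93802 were listed by 1 sample, 277 by 2, 37 by 3 and 30 by at least 4. PB thus had more positions at the threshold, while SB had as many in 5 or more samples, 20 against 18, from 22 rather than 42 samples. The highest numbers were 19 samples at 1 PB position and 20 samples at 1 SB position.

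**Figure D1:**
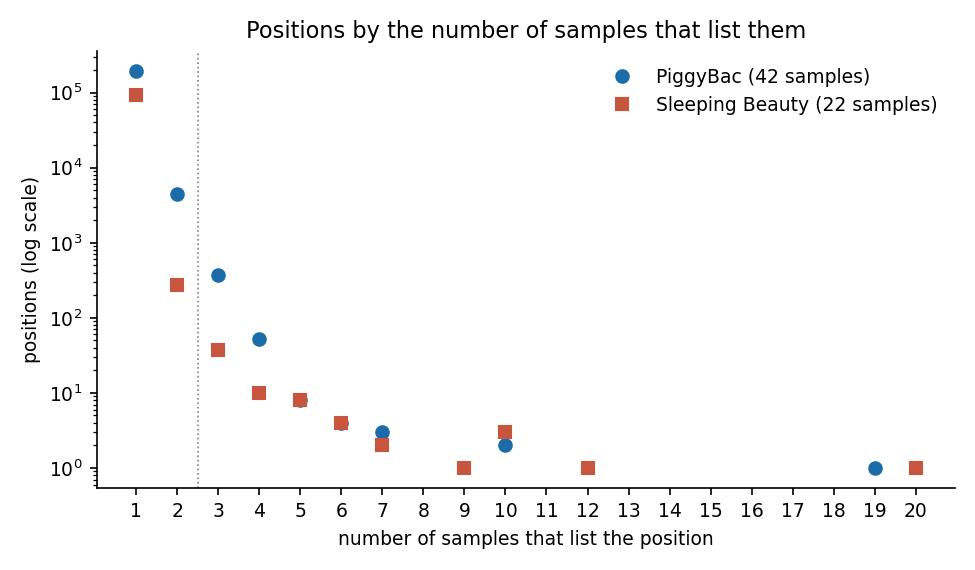
Number of positions (log scale) by the number of samples that list them, for PB (42 samples) and SB (22 samples); the dotted line marks the minimum of 3. PB falls from 196307 positions in 1 sample to 1 position in 19, and SB from 93802 to 1 position in 20.

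The deposited position is not the motif but a base of it. Of the shared positions, 445 of 447 in PB fell on 1 of the 2 middle letters of TTAA, and 66 of 67 in SB on either letter of TA. Within a sample, none of the 204925 PB and 94495 SB hits, counted per sample and motif, was listed at both letters. Between samples, however, 4358 of the 8380 PB motifs hit in 2 or more samples (52%) and 47.7% of the 537 such SB motifs were listed at both. An exact position therefore misses part of the samples that hit the same motif. Counted by motif, 1100 TTAA motifs and 95 TA motifs were hit in 3 or more samples. The labels say that the 5′ and 3′ transposon ends were amplified and sequenced separately, and the part of this step in the choice of letter was not tested.

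In PB, the shared positions lay close to gene starts. Within 5 kb of an annotated start were 245 of 447 shared positions, 54.8% (95% Wilson interval 50.2 to 59.4), against 21.7% of positions found once (21.6 to 21.9). The share rose with the number of samples, from 39.3% of positions in 2 samples to 53.2% in 3 and 63.4% in at least 4. Gene bodies held 67.8% of shared positions against 62.8% of those found once, and with 5 kb added on each side 92.4% against 73.3%. Exons held 10.5% (8.0 to 13.7) against 6.03%, although coding sequence held only 3 shared positions. All these intervals cover counting error only, since positions are not replicates.

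In SB, the share near gene starts followed no order. Within 5 kb of a start were 10 of 67 shared positions, 14.9% (8.31 to 25.3), against 13.4% of positions found once. It was 14.8% for positions in 2 samples, 5.4% in 3 (1.5 to 17.7) and 26.7% in at least 4 (14.2 to 44.5), the last being 8 of 30 positions, 6 of them in En2. Gene bodies held 58.2% of shared and 53.2% of single positions. Of the SB shared positions, 23 of 67 (34.3%) had a flank of 30 bases that occurs more than once in the genome, against 17.3% of positions found once. In PB this was the case for 20 of 447 (4.47%) against 7.7%. Among the 44 SB shared positions with unique flanks, 34 (77.3%) lay in gene bodies.

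**Figure D2:**
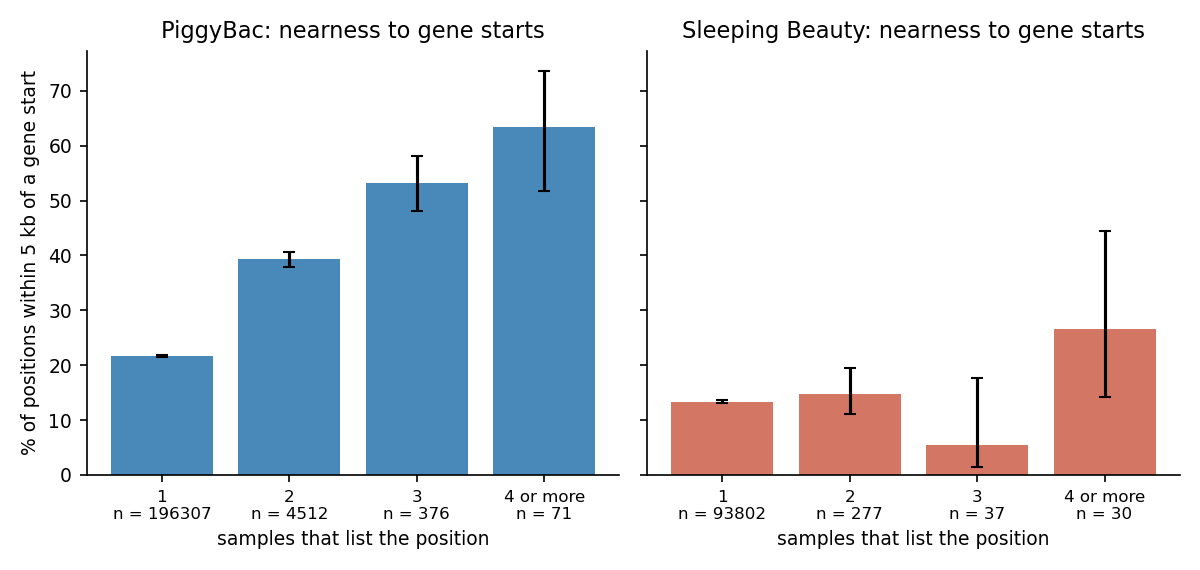
Percent of positions within 5 kb of an annotated gene start, by the number of samples that list the position, for PB (left) and SB (right); bars start at 0 and error bars are 95% Wilson intervals. In PB the percent climbs from 21.7 for positions found once to 63.4 for positions in at least 4 samples, whereas in SB the 4 bars do not follow an order.

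The letters around the motif differed too. A TTAA with T as the letter at distance 3 before it and A at distance 3 after it was present at PB shared positions in 26.5% of cases (22.6 to 30.8), positions found once in 19.6%, and all TTAA motifs of the chromosomes in 11.7%. This pattern reads the same on both strands. The mean GC content of the motif with 20 bases on each side was 40.7% ± 9.06 (SD over 447 positions) at shared and 35.3% ± 9.81 (SD) at single PB positions. For SB it was 34.97% ± 10.2 (SD over 67 positions) and 33.5% ± 11.1 (SD). The SB pattern ANNTANNT, N being any letter and also the same on both strands, was present at 34.8% of shared positions (24.5 to 46.9), 59.1% of positions in 2 samples (53.2 to 64.7), 51.9% of positions found once and 11.2% of all TA motifs.

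The PB position in most samples is in an intron of Rasa2, which encodes a GTPase-activating protein of RAS. It was listed by 16 tumours and 3 tails, always on the minus strand. PB tumour 3 had 57873 reads there, and the other 18 samples had between 2 and 14 (median 3). All 19 samples had names of the joined form. The next, in an intron of Asxl2, which encodes a chromatin protein, had the same shape: 94734 reads in PB tumour 3, between 2 and 5 in the other 9 samples, the minus strand throughout and joined names only. So did the position in Gm30855, with 8798 reads in PB tumour 3 and between 2 and 4 in 6 others.

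The position in the 3′ untranslated exon of Rel, which encodes the NF-κB subunit c-Rel, was listed by 7 tumours and no tail. Its reads were 80948 in PB tumour 3, 1056 in PB tumour 11, 883 in PB tumour 29, 69 in PB tumour 10, 57 in PB tumour 21, 7 in PB tumour 7 and 2 in PB tumour 22. All were on the minus strand, the strand of the gene. A second shared position in the same exon had 316, 27 and 22 reads in PB tumours 9, 8 and 12, again all on the minus strand. The 10 listings at both positions thus came from 10 tumours.

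At some other PB positions, no single sample held nearly all of the reads. In an intron of Tnfrsf14, which encodes the lymphocyte receptor HVEM, 8 tumours had between 10 and 2314 reads (median 103.5) and 2 tails had 6 and 16. The highest value was that of PB tumour 16, and the next was 627 reads in PB tumour 20. Both strands were present, 5 times plus and 6 times minus, with 1 tumour on both. The position closest to Gm5960 had between 4 and 114 reads over 7 samples, with the highest value in a tail. Its printed letters occur 5 times in the genome, although each flank of 30 bases occurs once.

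**Figure D3:**
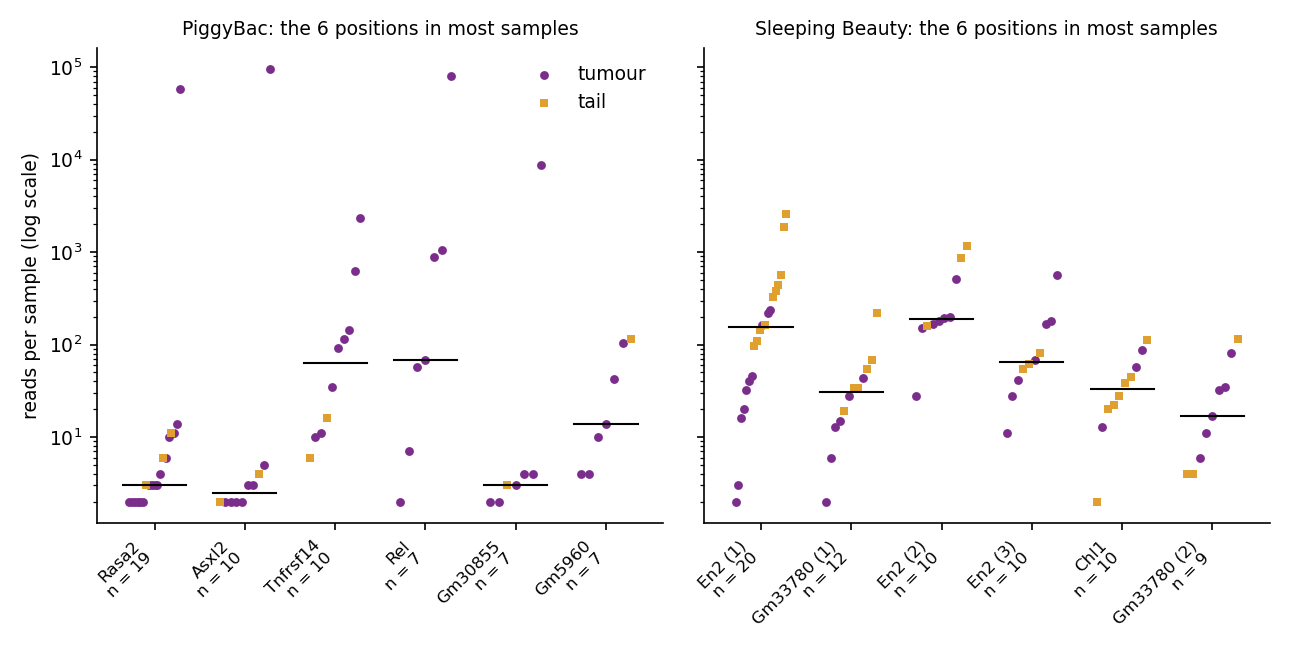
Reads per sample (log scale) at the 6 positions listed by most samples in PB (left) and SB (right), each named by its gene or closest gene; circles are tumours, squares are tails, the line is the median over samples, and numbers in brackets tell positions with the same name apart. The highest points of Rasa2, Asxl2, Rel and Gm30855, from 8798 to 94734 reads, are all from PB tumour 3, while no SB point lies above 2560.

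Some positions were led by 1 sample. At 28 of 447 PB shared positions (6.26%) a single sample held at least 95% of the reads, and PB tumour 3 was that sample at 11 of them. The leading sample had a median of 2457 reads at these 28, and the typical other sample 3. At the remaining 419 the leading sample had a median of 30 and the typical other sample 6.5, a contrast that the choice by share of reads sets. Besides Rasa2, Asxl2, Rel and Gm30855, PB tumour 3 led at positions in or next to Hnrnpa2b1, Akap13, Ccdc6, Atg10, Arfgap2, Ddx52 and Nfyb. The other 17 were led by 10 samples, among them 3 positions in Gna13 and 2 in Fas.

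Pairs of listings at these positions were mostly on the same strand, and most pairs came from few positions. Over all pairs of samples at the same position, with each sample on 1 strand, 307 of 333 pairs (92.2%) had the same strand where 1 sample held at least 95% of the reads, against 819 of 1536 (53.3%) at the other PB shared positions. Rasa2 alone gave 171 of the 333 pairs, and the other 27 positions 136 of 162 (84.0%). Positions led by PB tumour 3 had 274 of 282 pairs on the same strand (97.2%), and those led by other samples 33 of 51 (64.7%). Positions in 2 samples gave 52.9%. All listings were on 1 strand at 16 of the 28 positions and at 120 of the other 419. Of the 11 positions led by PB tumour 3, 8 were listed by samples with joined names only, against 146 of all 447 PB shared positions. PB tumour 3 itself has a joined name. The source of the weakly read listings was not tested.

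**Figure D4:**
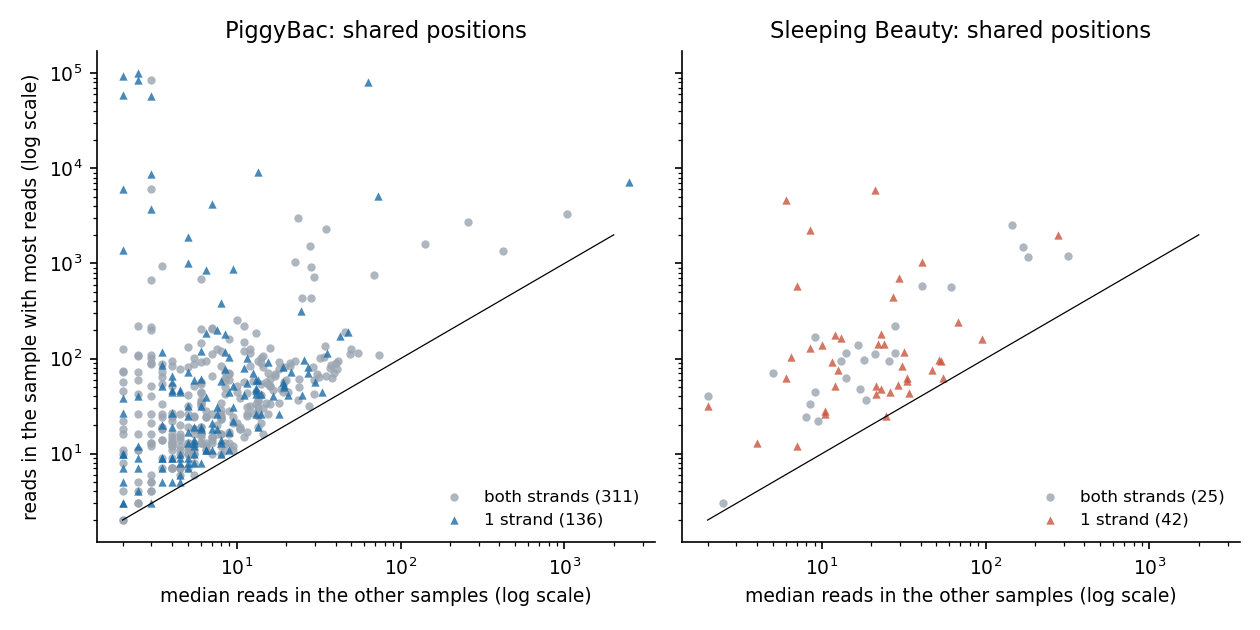
Reads in the sample with most reads against the median reads in the other samples, 1 point per shared position, both axes on log scales; triangles are positions with all listings on 1 strand, circles those with both strands, and the line marks equal values. The 28 PB positions led by 1 sample lie far from the line, and 16 of them are triangles.

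Genes of the B-cell and lymphoma list held many PB shared positions. This list, like every list here, was written with earlier results of these data known and is no independent evidence. Of its 54 genes on the chromosomes kept, 15 held a shared position, 35 positions in all, which is 7.83% of shared positions (5.68 to 10.7) against 0.991% of positions found once. Tumours made 94 of the 117 listings (80.3%), against 75.8% over all PB shared positions and 76.5% over positions found once. The 3 list genes with the position in most samples were Rel, Notch1 and Fas. None of 30 epidermis and skin genes held a shared position in either system, and these genes held only 0.193% of PB and 0.124% of SB positions found once, so that a 0 among so few shared positions is no contrast.

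Fas, the death receptor, had 4 shared positions within 2083 bp of its introns, with 13 listings from 10 tumours and none from a tail. At chr19:34321844 PB tumours 10, 7, 8 and 9 had 5104, 1885, 73 and 23 reads. At chr19:34322618 PB tumours 12, 16 and 6 had 7149, 3305 and 1678 reads, so that each of these libraries was strongly read. The plus strand, which is the direction of the gene, had 12 of the 13 listings. At chr19:34322251 PB tumour 11 had 1382 reads, and PB tumours 2 and 17 had 2 each, the lowest count of any line. Those were the only listings of PB tumours 2 and 17 at the 4 positions. At chr19:34323927, 1528, 53 and 3 reads were listed, and the letters of 1 flank occur 897 times in the genome. In the same window SB samples had 12 insertions at 10 positions, from 5 samples, and none of them was shared.

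Ikzf1, which encodes the lymphocyte transcription factor Ikaros, also had 4 shared positions and 13 listings from 10 tumours, but they spread over 58947 bp, with reads between 2 and 126 (median 7) and 8 listings in the direction of the gene against 5. Gna13, which encodes a G protein subunit that restrains germinal centre B cells, had 4 with 11 listings in tumours and 1 in a tail, and between 2 and 9226 reads. Ptprc, which encodes CD45, had 3 with 10 listings in 9 tumours and none in a tail, all between 2 and 33 reads. Like Fas, these 3 genes had at most 1 listing from a tail.

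Notch1, the receptor of the Notch pathway, had the opposite tissue. Its 4 PB shared positions had 2 listings from tumours and 12 from tails, out of 30 tumours and 12 tails. At chr2:26500896, in an intron, 4 tails had 188, 50, 45 and 21 reads and PB tumour 28 had 68, and all 5 were on the plus strand. The gene itself is on the minus strand. An SB shared position in the same gene, at chr2:26464465, was likewise listed by 3 tails and no tumour, with 91, 21 and 2 reads.

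Hjurp, which encodes a centromere histone chaperone and is on the list of transposon hotspots, had 3 PB shared positions within 238 bp of an intron, with 4 listings in tumours and 6 in tails. The positions chr1:88277049 and chr1:88277050 are adjacent bases, so the 3 positions need not be 3 separate motifs. Reads ranged from 2 to 382. No SB insertion fell in that window.

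No single position was called as different between tumours and tails. Fisher's exact test on presence, with Benjamini-Hochberg adjustment over all positions of a system, called 0 of 201266 PB positions (0%) and 0 of 94146 SB positions (0%), and so none of the shared ones. Alone, even an SB position in all 11 tumours and no tail could not pass this adjustment. PB positions in 3 samples could not pass it either. For such positions, the 0 calls were set by the number of samples. Before adjustment, 24 PB and 0 SB positions had p below 0.05. The 24 are all shared positions with a higher share of tails than of tumours, and 22 of them were listed by 3 tails and no tumour (p = 0.0192, adjusted p = 1). Because 12 tails stand against 30 tumours, 3 tumours without a tail cannot reach such a value, and none of the 216 positions in tumours only did. The lowest p was that of Notch1 at chr2:26500896 (p = 0.0184, adjusted p = 1).

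In SB, shared positions concentrated in 3 short windows. A stretch of 384 bp in En2 held 6 of them, a stretch of 4667 bp on chromosome 2 held 16, and a shorter one in an intron of Chl1 held 4. Together these are 26 of the 67. In PB, the 447 shared positions fell into 409 groups more than 10 kb apart, and the largest group held 4.

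En2, a homeobox transcription factor gene, was hit in its window by all 22 SB samples and by 2 of 42 PB samples. At the position in its coding exon, 10 tails had between 97 and 2560 reads (median 353) and 10 tumours between 2 and 234 (median 36). Most tails lay above most tumours, but the ranges overlapped. Both strands were present, with 18 listings on plus and 14 on minus, 12 samples having both. Over the 6 positions together, tails had between 437 and 4187 reads per sample (median 1016) and tumours between 31 and 1037 (median 358). The flanks of all 6 occur once in the genome. Neighbouring En2 positions were not always separate measurements. SB tumour 10 had 180 reads on the plus strand at chr5:28169871 and 180 on the minus strand at chr5:28169875, SB tumour 6 had 168 at both, and SB tumour 8 had 517 at chr5:28169871 and at chr5:28169862. Such a partner within 20 bp, with equal reads on the other strand, was found for 13 of the 300 SB listings at shared positions (4.33%), 12 of them in En2, for 47 of 93802 SB listings at positions found once (0.0501%), and for none of the 1464 PB listings at shared positions. With each such pair of at least 10 reads counted at 1 position only, SB still had 67 shared positions. Splice acceptors taken from En2 are a common part of gene-trap transposons, and the cargo of the ITP transposons is not given in the sources used here.

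The window on chromosome 2, from 98662536 to 98667202, lies about 35 kb from the closest annotated gene and was hit by all 22 SB samples at 45 positions, against 6 PB samples at 4 positions. At its leading position 6 tails had between 19 and 218 reads and 6 tumours between 2 and 44. Its letters are repeated: the printed sequence around this position occurs 52 times in the assembled genome and that around the other printed one 44 times. Over the 16 positions the larger copy number of the flanks ranged from 1 to 81 (median 4), and at 15 of them both strands were listed.

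Chl1, which encodes a neural cell adhesion molecule, shares letters with that window. The printed Chl1 sequence occurs 7 times in the genome and is the same around another shared position 119 bp away. A stretch of 20 bases of it, tgatatacactgttctacaa, noticed after these sequences had been compared, is found 9 times in the genome, 6 of them on chromosome 2 and 2 on chromosome 6, on either strand. It lay within 20 bases of the motif at 9 of the 67 SB shared positions (13.4%), in 5 copies on chromosome 2 and 2 on chromosome 6. Among SB positions found once 4 of 93802 had it, and no PB position in either class. Because the stretch was cut from the letters around a shared position and is rare, this contrast was set by the choice. The 9 positions had between 3 and 10 samples each, and 18 of the 22 samples listed at least 1 of them. As background, letters of this kind are found in the satellite repeats of mouse centromeres. The counts of copies cover the assembled chromosomes only, so copies outside the assembly are left out.

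A second kind of SB sharing came from few samples. SB tail 5 and SB tumours 4, 5, 6 and 11 each listed at least 10 shared positions with all listings on 1 strand, and the next sample listed 7. Of the 67 shared positions, 31 were listed by 3 or more of these 5 samples, 26 of them on 1 strand, and 23 were listed by no other sample. In Cnot1, which encodes the scaffold of a deadenylase complex, SB tumour 4 had 141 reads, SB tail 5 had 97, and SB tumours 5, 6 and 11 had 30, 18 and 14, all on the minus strand. In Ubxn7, SB tail 5 and SB tumours 11, 6 and 5 had 96, 58, 52 and 50 reads, all on the plus strand. The 5 samples came from different mice, 4 different title numbers, and both tissues.

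Reads at these positions were alike in some pairs of libraries and not in others. SB tail 5 and SB tumour 5 had 34 positions in common, with medians of 45.5 and 31 reads and the same strand at 30 of 32. SB tumours 5 and 6 had 26 in common, with medians of 24.5 and 23 reads and the same strand at 25 of 25. SB tumours 4 and 11 had 15 in common, with medians of 195 and 15 reads and the same strand at 12 of 14. SB tumour 4 held at least 95% of the reads at 3 SB shared positions. In Ebf1, a B-cell transcription factor gene, it had 4607 reads and SB tumour 11, SB tail 5 and SB tumour 1 had 23, 6 and 3. In 4933430H16Rik it had 5937 reads, beside 27 and 15 in SB tail 5 and SB tumour 11, and in Rnf111 it had 2264, beside 15 and 2 in SB tumours 6 and 11. Without the 5 samples, 27 SB positions in 3 or more samples were left, and 25.9% rather than 62.7% of them had all listings on 1 strand. Because the 5 samples were chosen by their positions on 1 strand, this fall was set by the choice. Why the 5 samples share positions was not tested.

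Pairs of samples with many positions in common on the same strand were also present in PB, with unequal reads. PB tails 10 and 12 had 58 positions in common, the most alike pair of the system with a Jaccard index (positions in both over positions in either) of 0.706%, and 53 of the 58 had the same strand. Only 5 of these were shared positions, because most were in these 2 tails alone. Their medians there were 2 reads in PB tail 10 and 67 in PB tail 12. PB tail 9 and PB tumour 30 had 31 in common, 30 on the same strand, with medians of 6 and 3571 reads. By contrast, PB tumours 7 and 11 had 50 in common with 28 of 49 on the same strand.

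PB samples whose names had the same form shared more positions. Over PB pairs the mean Jaccard index was 0.0761% (SD 0.0563, 456 pairs) within a form and 0.0581% (SD 0.0374, 405 pairs) between forms, a difference of 0.0181 points (permutation of forms over samples, two-sided, p = 3.4e-04, adjusted p = 0.00408 over 12 tests). With insertions of at least 10 reads only, the difference was 0.00174 points (p = 0.521, permutation). For SB the values were 0.0593% (159 pairs) and 0.0363% (72 pairs), p = 0.0137 and adjusted p = 0.0548. Without the 5 SB samples above, the difference fell from 0.0230 to 0.0153 points (p = 0.0716, permutation). Forms were permuted without regard to tissue, and in SB the separated form held tails only, so form and tissue cannot be told apart there.

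The number in the sample's title, whose meaning the labels do not give, made no measurable difference in PB, with 0.0757% for pairs of the same number and 0.0762% for pairs of different numbers (permutation within the form of name, p = 0.946, adjusted p = 0.946). In SB, pairs of the same number had 0.0788% (SD 0.0884, 29 pairs) and pairs of different numbers 0.0550% (SD 0.0431, 130 pairs), a difference that missed the threshold (p = 0.0529, adjusted p = 0.159). Without the 5 samples it was 0.0289 points (p = 0.0389, permutation), and with pairs of the same tissue only 0.0139 points (p = 0.319, permutation).

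Tumours and tails placed a similar share of their insertions on shared positions. PB tumours had 0.711% ± 0.198 (SD, n = 30), with 3 to 80 such insertions per sample, and PB tails 0.759% ± 0.103 (SD, n = 12), with 16 to 48. The difference of -0.0482 points was smaller than the SD of either group (permutation test, two-sided, p = 0.434, adjusted p = 0.52). SB tumours had 0.404% ± 0.204 (SD, n = 11) and SB tails 0.284% ± 0.189 (SD, n = 11), a difference of 0.12 points (two-sided permutation test, p = 0.172, adjusted p = 0.307). Without the 5 SB samples it was 0.0731 points (p = 0.159, permutation). Within joined names the differences were -0.0261 points in PB and 0.0874 points in SB, with p = 0.761 and 0.413 (exact permutation tests), and within separated names of PB it was -0.0335 points, p = 0.752.

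Reads were then set against those at positions found once, as the log2 of the ratio of a sample's median reads at both. In SB tumours shared positions had more reads, with a mean log2 ratio of 1.28 ± 1.04 (SD, n = 11), a 2.42-fold difference, above 0 in 10 of 11 samples (two-sided sign-flip permutation test, p = 0.00191, adjusted p = 0.0115). Without the sample with most reads at each position it was 0.65 (p = 0.351, permutation), a choice that lowers the value by construction. With a minimum of 5 samples per position the mean log2 ratio was 1.16 (p = 0.141, permutation). The ratios rest on 4 to 31 listings at shared positions per SB tumour. The highest, 3.97 in SB tumour 8, came from 4 listings, among them the En2 pair of 517 reads each. SB tumours 4, 6, 10 and 11 also held a pair of equal reads in En2. The ratios were not recomputed with each such pair counted once. Samples of a group also list the same positions, so their ratios are not fully independent. SB tails had 0.44 ± 1.04 (SD, n = 11; p = 0.185, adjusted p = 0.307, permutation), with 1.03 in the 7 tails of joined names and -0.60 in the 4 of separated names. PB tumours had 0.09 ± 0.42 (SD, n = 30; p = 0.231) and PB tails 0.10 ± 0.28 (SD, n = 12; p = 0.222, permutation).

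The ratio did not differ measurably between tissues. The mean log2 ratio of tumours minus that of tails was 0.84 in SB (two-sided permutation test, p = 0.0712, adjusted p = 0.171) and -0.01 in PB (p = 0.936, adjusted p = 0.946). Among SB samples with joined names it was 0.24 (exact permutation test, p = 0.634). Over single listings of SB, the median reads were 16 at positions found once, 23 at positions in 2 or 3 samples and 40 in at least 4. As the median of each sample's own median these were 18.5 at positions found once, 25 in 2 samples, 16.8 in 3 and 43.8 in at least 4, so that positions in 3 samples were not above those found once. In PB the medians over listings were between 8 and 10.

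**Figure D5:**
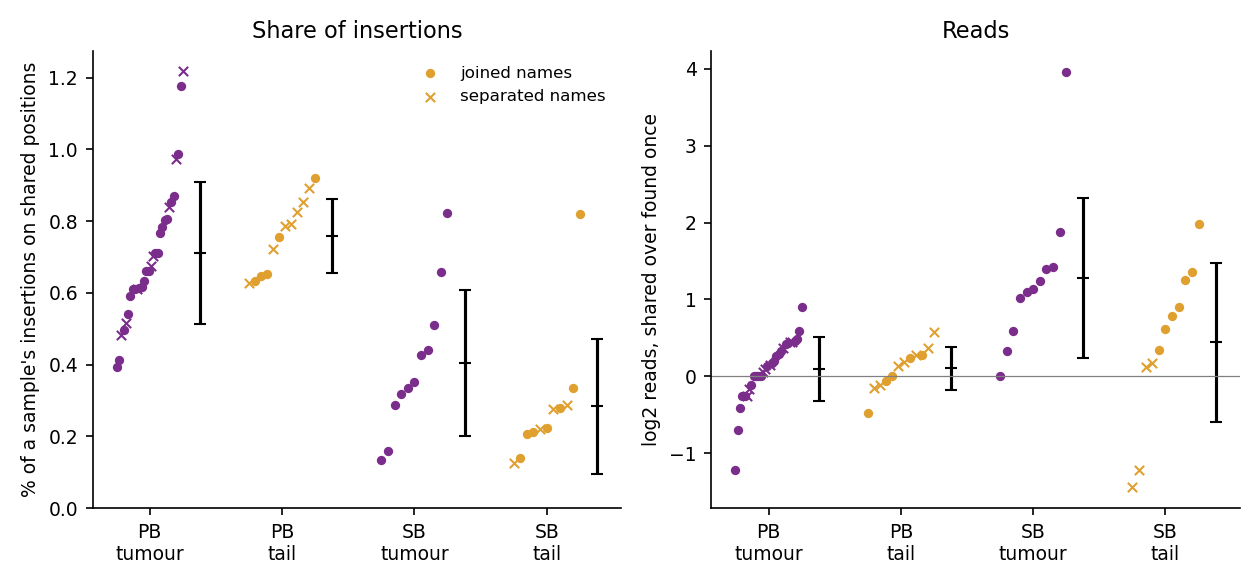
Per sample, the percent of insertions on shared positions (left) and the log2 ratio of median reads at shared positions over positions found once (right), by group; circles are joined and crosses separated names, and bars give the mean ± SD. The PB groups overlap on both panels, and 10 of 11 SB tumours lie above 0 on the right.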

How the data were processed

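Junctions between transposon and genome were sequenced in 64 samples (splinkerette PCR, QiSeq), and the authors deposited 1 table of 385883 lines with position, strand and read count on mm10. The deposited counts are raw, not normalized. Aligner, caller and read filters are not given in the sources used here. Of other columns of per-sample values, 1 was not used. Lines of a sample and position were merged over strands (164 merged lines). The minimum was 3 samples. Motifs were sought within 5 bp. Genes, exons and starts came from the RefSeq annotation of GRCm38, and sequences from its genome. Flanks of 30 bases and printed sequences were counted on both strands of the assembled chromosomes. Every count of copies in the genome is therefore a count in the assembly. The letters around 1 of the named positions are not reported here.

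Groups follow the labels, and numbers within a group follow the order of the records and pair nothing. Groups were compared over samples with permutation or sign-flip tests (100000 resamples), exact where a group had fewer than 10 samples, with Benjamini-Hochberg adjustment over 12 tests. Single positions were compared with Fisher's exact test. Intervals are 95% Wilson intervals. PCR reads carry no molecular identifiers, so intervals cover counting error only, and p-values measure only the spread between these samples. Tests were checked on simulated data. Alternatives varied the position, the minimum of samples and reads, and the samples used. Named are, per system, the 6 shared positions in most samples, the 3 genes with most shared positions and the 3 leading genes of each list. Other genes, the class led by 1 sample, the 5 SB samples, the pairs of equal reads within 20 bp and the stretch of 20 bases were chosen after their values were seen. The members and lists were chosen with earlier results of these data known. Python 3.11.15, numpy 2.4.6, pandas 2.3.3, scipy 1.17.1 and matplotlib 3.10.9 were used.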

Additional observations from a re-analysis of the deposited data

How the results depend on the processing

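The number of shared positions depended most on the definition. In PB it was 447, against 1100 by motif, 182 by position and strand, 73 with insertions of at least 10 reads, 4959 and 18 with a minimum of 2 or 5 samples, and 248 in 3 or more tumours. In SB it was 67, against 42 with at least 10 reads, 344 and 20 with a minimum of 2 or 5 samples, 24 in 3 or more tumours, 44 without repeated flanks and 27 without the 5 samples named above. With at least 10 reads, 26.03% of PB shared positions had all listings on 1 strand, and without the 5 samples 25.9% of SB ones did. Gene bodies held 92.4% of PB shared positions with 5 kb on each side and 60.9% for protein-coding genes, and 77.3% of SB ones with unique flanks. The PB difference between tumours and tails in the share of insertions turned to 0.0783 points with at least 10 reads and to 0.00675 with a minimum of 5 samples, with p = 0.241 and 0.693 (permutation). The SB difference was 0.206 points with at least 10 reads (p = 0.0935, permutation), 0.045 with a minimum of 5 samples and 0.0731 without the 5 samples. The PB tumour log2 ratio of reads was 0.24 as a mean of log2 reads (p = 0.0109, permutation) and -0.44 without the sample with most reads at each position (p = 0.00272, permutation). That of PB tails was -0.034 as a mean of log2 reads, -1.73 without the sample with most reads and -0.091 with a minimum of 5 samples, and 0.19 without positions led by 1 sample (p = 0.027, permutation). The PB difference between tissues in this ratio was 0.28 as a mean of log2 reads, 1.29 without the sample with most reads (p = 1.7e-04, permutation), 0.58 with a minimum of 5 samples and 0.081 within joined names. That setting removes the highest reads by construction. In SB, the tumour ratio was 0.65 without the sample with most reads and 1.16 with a minimum of 5 samples (p = 0.141, permutation), the tail ratio 1.09 as a mean of log2 reads and 1.28 with a minimum of 5 samples (p = 0.00779 and 0.0128, permutation), and their difference -0.13 with a minimum of 5 samples. For title numbers, the PB difference was 0.00681 points over the smaller sample, 0.00184 with at least 10 reads and 0.00758 whatever the form of name, and the SB difference 0.0212 for positions in at most 2 samples (p = 0.00716, permutation) and 0.0289 without the 5 samples, but 0.0139 for pairs of the same tissue, 0.0149 with at least 10 reads and 0.0135 whatever the form (p = 0.319, 0.4 and 0.144, permutation). For name forms, the PB difference was 0.00174 points with at least 10 reads and 0.00943 without positions led by 1 sample (p = 0.0129, permutation), and the SB difference 0.0153 without the 5 samples. The alternatives without positions led by 1 sample, without repeated flanks, without the 5 samples and with pairs of the same tissue were chosen after seeing the data. Except where a sentence above says so, the causes of these changes were not tested. No paired analysis was possible because the replicate numbers follow the order of the records and pair no samples. SB separated names hold no tumour, so no comparison of tissues was made there.

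At a median of 8 reads for a PB listing and 16 for an SB listing at positions found once, an insertion present in few cells can be missed in a sample. The number of samples limits the test of single positions, and its 0 calls do not show that tissues are alike.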
